A study of Mus musculus with 20 samples.

Results

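The Wnt pathway was described through 49 protein-coding genes of the 29692 genes in the RNA-seq table, chosen by name: every Wnt ligand, Frizzled receptor, Dickkopf (Dkk) and secreted Frizzled-related (Sfrp) gene, plus Lrp5, Lrp6, Axin1, Axin2, Tcf7, Tcf7l1, Tcf7l2, Ctnnb1, Notum, Nkd1, Znrf3, Rnf43 and Porcn. They comprised 19 ligands, 10 Frizzled receptors, 2 co-receptors, 8 secreted inhibitors, 5 inhibitors that act in or on the receiving cell, 4 nuclear effectors and 1 ligand-processing enzyme. The study sorted mouse embryonic stem (ES) cells, cultured pluripotent cells of the early embryo, grown in 10% fetal bovine serum with leukemia inhibitory factor. The sort used the levels of a pair of pluripotency factors: state 3 cells had little Nanog and little Sox2, state 2 cells little Nanog but much Sox2, and state 1 cells much of both, while the total population was not divided by state. The labels name no line, strain, allele or added agent for any group. Each group had 3 libraries for RNA-seq of rRNA-depleted RNA and 2 for small RNA-seq.

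Wnt proteins are lipid-modified secreted signals. Bound to a Frizzled receptor and the co-receptor Lrp5 or Lrp6, they stop the Axin-containing destruction complex from degrading beta-catenin (Ctnnb1), which then acts on target genes with the Tcf and Lef factors. In mouse ES cells this signalling favours self-renewal, and Tcf7l1, which represses pluripotency genes, is relieved by beta-catenin. In the embryo Wnt3 is needed to form the primitive streak.

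The deposited RNA-seq table gives 1 normalized value per gene and group, merged over libraries by the authors, so no spread between libraries can be shown and whether libraries of different states overlap is not visible. It also gives the authors' posterior probabilities from EBSeq for each pattern of equal and unequal groups. A difference was called here where the posteriors that set 2 groups apart summed to at least 0.95, and log2 ratios are of the value + 1. About 48.0 M reads stood behind state 3, 60.4 M behind state 2, 55.4 M behind state 1 and 52.1 M behind the total population. This was estimated from the commonest low value of each group, taken as the worth of a single read, and 3 reads corresponded to values of 0.84 to 1.08. In the sort genes themselves, Nanog was at 440.0 in state 3, 743 in state 2, 4145 in state 1 and 2783 in the total population, and Sox2 at 1306 in state 3, 3167 in state 2, 4155 in state 1 and 3955 in the total population. The values follow the gates. Below, the Nanog step is state 2 against state 1, the Sox2 step is state 3 against state 2, and the full range is state 3 against state 1. The names give the gate that differs, but both sort genes were called lower at both steps. Sox2 had a log2 ratio of -0.39 at the Nanog step, and Nanog had -0.755 at the Sox2 step. Neither step is therefore a change in a single factor. Values are not scaled for gene length, so levels are compared between groups and not between genes.

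Over the full range, 10 of 19 Wnt ligands, 7 of 10 Frizzled receptors and the inhibitors Dkk1 and Dkk3 were among the genes higher in state 3 than in state 1, whereas Fzd5, Porcn, Notum, Sfrp1, Sfrp4 and Tcf7l1 were lower. In all, 24 of the 49 genes were called higher in state 3 (49.0%) and 6 lower (12.2%). Of all genes, 11.4% were called higher and 9.01% lower in this comparison. All 30 calls lay among the 42 pathway genes with a mean of at least 5 over the 4 groups. Among the 16795 genes of the table that reach this mean, 19.6% were higher and 15.8% lower. The share of pathway genes that rose was thus above both backgrounds and the share that fell was close to them. The median log2 ratio of the pathway genes, state 3 over state 1, was 0.95, beside 0.0 over all genes. In sorted bulk samples, more cells that use a gene and more RNA per cell cannot be told apart.

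Calls were made at both steps of the sort. At the Nanog step 14 pathway genes were called higher (28.6%) and 4 lower (8.16%), where 7.11% and 6.33% of all genes and 12.5% and 11.1% of genes with a mean of at least 5 were called. At the Sox2 step 16 were called higher (32.7%) and 4 lower (8.16%), where 5.41% and 3.19% of all genes and 9.38% and 5.63% of genes with a mean of at least 5 were called. The median log2 ratio was 0.37 for state 2 over state 1 and 0.46 for state 3 over state 2, beside 0.0 over all genes in both. By the summed posteriors from the authors' deposited table, 0.319% of the pathway calls at the Nanog step, 0.911% at the Sox2 step and 0.0669% over the full range would be false. The 7 genes called in all 3 comparisons were Wnt3, Wnt4, Wnt7a, Fzd2, Fzd5, Fzd6 and Sfrp1, and 17 genes were called in none. The states share no libraries, but each pair of comparisons shares a state, so the counts are given side by side and were not tested against each other.

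**Figure D1:**
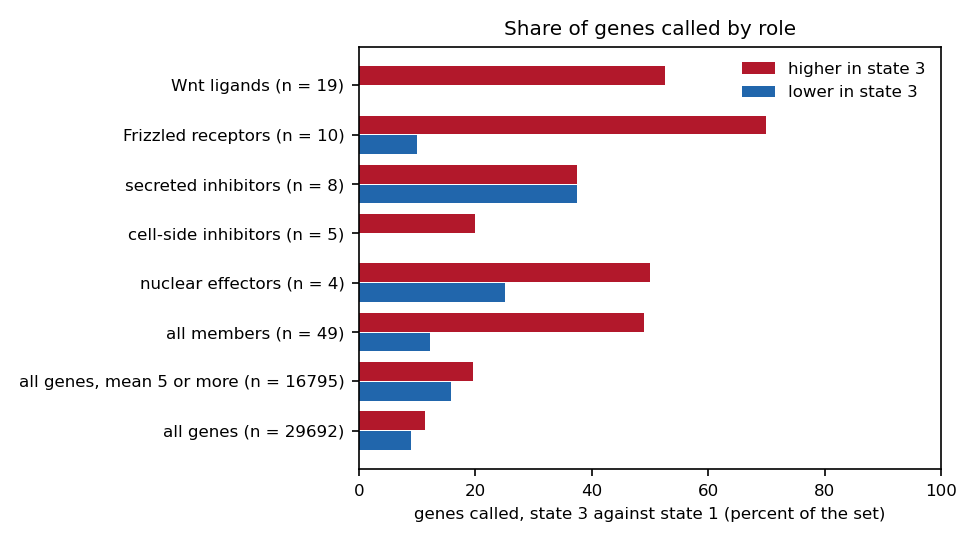
Share of genes called in state 3 against state 1 (percent of each set, horizontal axis) by role, with all pathway genes, all genes with a mean of at least 5 and all genes at the bottom; red bars are genes higher in state 3 and blue bars genes lower. The single processing enzyme and the pair of co-receptors are counted among all members only, and the ligand row has no blue bar.

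The ligand calls all ran in 1 direction. Of 19 ligand genes, 10 were called higher in state 3 than in state 1 (52.6%). At the Sox2 step 8 were called higher (42.1%) and at the Nanog step 5 (26.3%). None was called lower in these comparisons. Of all genes, 11.4%, 5.41% and 7.11% were called higher in the same order, and 9.01%, 3.19% and 6.33% lower. Of genes with a mean of at least 5, 19.6%, 9.38% and 12.5% were called higher and 15.8%, 5.63% and 11.1% lower. The median log2 ratio of the ligands was 2.52 for state 3 over state 1, 1.17 for state 3 over state 2 and 1.48 for state 2 over state 1. With values of 0 set to the worth of 3 reads, the last of these medians was 0.60 and the others kept 2.52 and 1.17. State 1 held few ligand reads: 9 of the 19 genes had at most 10 estimated reads there, and 6 had a mean under 5 over the groups. The 6 primitive endoderm markers summed to 621 in state 3, 205 in state 2 and 40.7 in state 1, and their part in the ligand values was not tested. Of the state 2 sum Foxa2 alone held 143, above its 100.3 in state 3, and 1 of the 6 markers was called at the Nanog step.

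Wnt4, a ligand of kidney and female gonad development, was at 308 in state 3, 42.8 in state 2, 5.86 in state 1 and 32.9 in the total population. Its log2 ratio was 5.49 for state 3 over state 1, 2.82 for state 3 over state 2 and 2.68 for state 2 over state 1, and the first of these was the highest among the 49 genes at a pseudocount of 1. Wnt3, the primitive streak ligand, was at 252 in state 3, 51.0 in state 2, 4.84 in state 1 and 25.7 in the total population, with log2 ratios of 5.44 for state 3 over state 1, 2.28 for state 3 over state 2 and 3.16 for state 2 over state 1. Wnt3 therefore covered more of its range at the Nanog step, and Wnt4 divided it about evenly. Wnt7a, known for the dorsal patterning of limbs, was at 81.3 in state 3, 18.0 in state 2, 1.61 in state 1 and 9.50 in the total population. Its log2 ratio of state 3 over state 1 was 4.98, on about 5.0 estimated reads in state 1. These 3 ligands were the pathway genes that also set state 1 apart from the total population: they were called lower in state 1, with log2 ratios of -2.19 for Wnt3, -2.30 for Wnt4 and -2.01 for Wnt7a, where 1.27% of all genes were called lower. Read in the next best order of the authors' patterns, with state 1 and the total population exchanged, Wnt3, Wnt4, Wnt7a, Wnt8a and Nkd1 lose their call at the Nanog step, which leaves 13 pathway genes called there in place of 18. Wnt9a is then the 1 ligand of 19 called at that step (5.26%). This share is not above the 7.11% of all genes called higher there in the order used.

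Another set of ligands was called at the Sox2 step and not at the Nanog step. Wnt6 was at 152 in state 3, 18.3 in state 2, 19.3 in state 1 and 23.6 in the total population, with a log2 ratio of 2.99 for state 3 over state 2 and -0.07, not called, for state 2 over state 1. Wnt5a, which signals largely without beta-catenin and drives the outgrowth of limbs and face, was at 120 in state 3, 22.5 in state 2, 7.07 in state 1 and 11.3 in the total population. Wnt10a, a ligand of tooth and hair development, was at 57.6 in state 3, 10.7 in state 2, 3.21 in state 1 and 9.65 in the total population. Both were called for state 3 against state 2, with log2 ratios of 2.36 and 2.32. For state 2 over state 1 the log2 ratios were 1.54 for Wnt5a and 1.475 for Wnt10a. These fell short of a call, with posteriors that summed to 0.81 for Wnt5a and 0.824 for Wnt10a. Wnt5b was at 25.8 in state 3, 12.4 in state 2, 8.06 in state 1 and 7.87 in the total population, and its call for state 3 against state 2 lay just inside the limit, at 0.953. Missing the limit at a step does not show that these genes were equal there.

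Wnt9a and Wnt8a had their calls at the Nanog step. Wnt9a, a ligand of joint formation, was at 101 in state 3, 47.4 in state 2, 7.42 in state 1 and 16.7 in the total population, with log2 ratios of 2.52 for state 2 over state 1 and 1.07 for state 3 over state 2, where the summed posterior was 0.905. Wnt8a, expressed in the posterior of the gastrulating embryo, was at 28.6 in state 3, 14.2 in state 2, 2.91 in state 1 and 7.10 in the total population. Its log2 ratio of state 2 over state 1 was 1.96. Among the 3 comparisons Wnt2b was called over the full range only, at 17.7 in state 3, 5.91 in state 2, 2.26 in state 1 and 4.82 in the total population. The order state 3 above state 2 above state 1 held in 11 of the 19 ligands.

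Wnt7b, used in lung and placenta, did not follow this order. It was at 212 in state 3, 80.5 in state 2, 174 in state 1 and 134 in the total population. It was called higher in state 3 than in state 2, with a log2 ratio of 1.39, while its lower value in state 2 than in state 1 had a summed posterior of 0.935 and was not called. Wnt11, a ligand of kidney branching, was at 9.58 in state 3, 3.70 in state 2, 16.8 in state 1 and 17.5 in the total population, with no call. Wnt3a, whose protein is used to support ES cell self-renewal in culture, was at 6.97 in state 3, 2.98 in state 2, 8.42 in state 1 and 3.73 in the total population, also with no call. Both had their lowest value in state 2. Wnt10b was at 7.39 in state 3, 2.97 in state 2, 1.62 in state 1 and 0.67 in the total population, and reached 0.88 for state 3 against state 1. The remaining uncalled ligands, Wnt1, Wnt2, Wnt8b, Wnt9b and Wnt16, were at 0.38 to 10.7 in state 3 and 0 to 1.29 in state 1, with Wnt1, Wnt2, Wnt9b and Wnt16 listed at 0 in state 1.

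**Figure D2:**
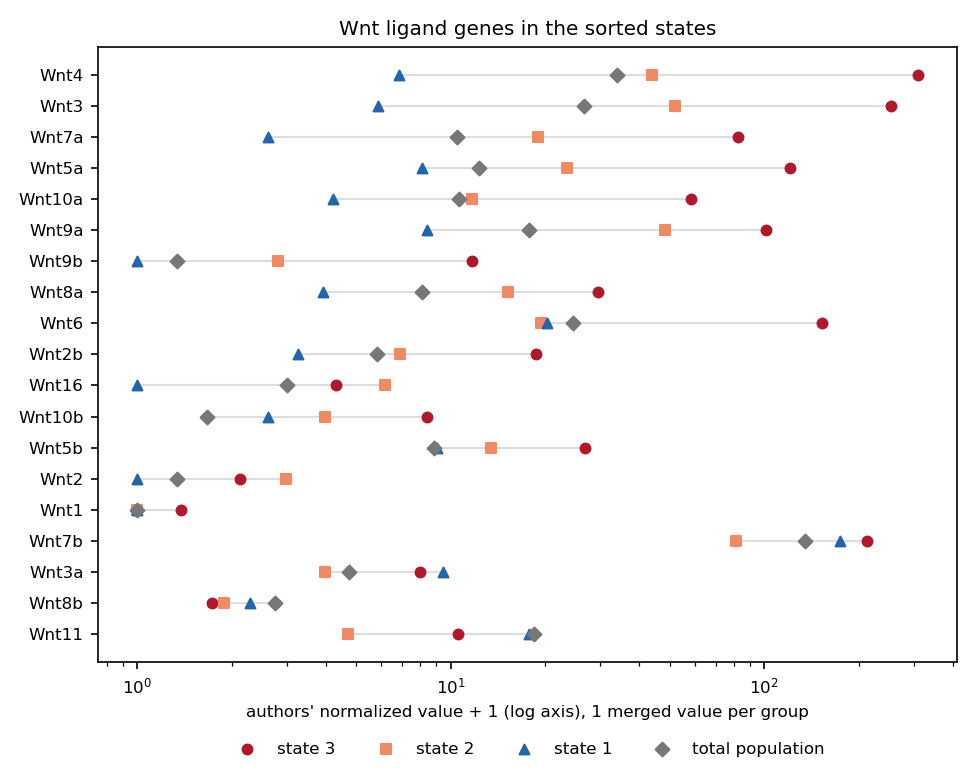
The authors' merged value + 1 of each Wnt ligand gene (log axis) in state 3 (red circles), state 2 (orange squares), state 1 (blue triangles) and the total population (gray diamonds), with genes ordered by the log2 ratio of state 3 over state 1; a point at 1 is a value of 0. Wnt4, Wnt3 and Wnt7a at the top span the widest ranges, and Wnt7b, Wnt3a, Wnt8b and Wnt11 at the bottom do not follow the order of the states.

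Several ligand genes lie side by side in the mouse genome. Wnt6 (chr1:74754342-74785322, GRCm38) and Wnt10a (chr1:74792019-74804176) are 6696 bases apart, and both rose at the Sox2 step. Wnt3a (chr11:59248036-59290751) and Wnt9a (chr11:59306849-59333552) are 16097 bases apart and differed, with Wnt9a called and Wnt3a not. Wnt10b and Wnt1 on chromosome 15 are 11650 bases apart and neither was called. Wnt9b (chr11:103727362-103775272, minus strand) overlaps the start of Wnt3 (chr11:103774175-103818021, plus strand) by 1098 bases. Wnt9b was at 10.7 in state 3, 1.81 in state 2, 0 in state 1 and 0.34 in the total population. The libraries mark strand, but the sources used here do not say whether the counting used it, so the Wnt9b values are uncertain and could hold reads of Wnt3.

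The promoters of the 3 ligands called at every step are shown with that of Dkk1, the secreted inhibitor that rose most, and that of Fzd5, the receptor that fell, so that the sequence of genes that moved together can be set beside one that moved against them. Each runs 5′ to 3′ from 250 bases before to 50 bases after the annotated start (RefSeq, GRCm38.p6). Capitals mark a match, on either strand, to CTTTGTT, searched here as a SOX type motif. CTTTGAT, searched as a TCF/LEF type motif, shares its first 5 letters. Neither CTTTGAT nor ATGCAAA, an octamer type motif, has a match in these windows. Other spellings were not searched, so a window may hold TCF/LEF type letters in another form. A match to CTTTGTT does not tell SOX from TCF/LEF factors.
Wnt3 (chr11:103773925-103774224, plus strand): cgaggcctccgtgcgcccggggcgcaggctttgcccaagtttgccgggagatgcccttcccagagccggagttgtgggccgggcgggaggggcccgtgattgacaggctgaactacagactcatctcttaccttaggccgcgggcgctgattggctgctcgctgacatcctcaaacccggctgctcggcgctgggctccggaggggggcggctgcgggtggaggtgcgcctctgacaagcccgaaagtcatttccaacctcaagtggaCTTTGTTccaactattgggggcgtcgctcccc
Wnt4 (chr4:137277385-137277684, plus strand): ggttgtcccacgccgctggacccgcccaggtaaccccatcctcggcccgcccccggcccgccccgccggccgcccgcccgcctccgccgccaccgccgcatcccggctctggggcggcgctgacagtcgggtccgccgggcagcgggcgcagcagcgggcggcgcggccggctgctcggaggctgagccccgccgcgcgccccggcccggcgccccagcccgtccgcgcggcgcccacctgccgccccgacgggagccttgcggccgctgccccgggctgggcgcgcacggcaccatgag
Wnt7a (chr6:91411304-91411603, minus strand): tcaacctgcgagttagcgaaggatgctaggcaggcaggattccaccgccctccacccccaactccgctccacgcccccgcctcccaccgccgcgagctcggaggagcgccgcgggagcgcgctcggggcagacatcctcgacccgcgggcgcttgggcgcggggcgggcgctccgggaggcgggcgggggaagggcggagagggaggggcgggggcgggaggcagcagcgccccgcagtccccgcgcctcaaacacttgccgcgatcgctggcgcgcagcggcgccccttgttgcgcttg
Dkk1 (chr19:30549447-30549746, minus strand): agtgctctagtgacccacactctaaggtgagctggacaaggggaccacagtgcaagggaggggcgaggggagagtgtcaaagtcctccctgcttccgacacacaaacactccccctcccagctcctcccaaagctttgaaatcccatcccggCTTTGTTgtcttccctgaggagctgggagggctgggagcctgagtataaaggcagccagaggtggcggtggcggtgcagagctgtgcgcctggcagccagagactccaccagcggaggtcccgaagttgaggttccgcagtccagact
Fzd5 (chr1:64737701-64738000, minus strand): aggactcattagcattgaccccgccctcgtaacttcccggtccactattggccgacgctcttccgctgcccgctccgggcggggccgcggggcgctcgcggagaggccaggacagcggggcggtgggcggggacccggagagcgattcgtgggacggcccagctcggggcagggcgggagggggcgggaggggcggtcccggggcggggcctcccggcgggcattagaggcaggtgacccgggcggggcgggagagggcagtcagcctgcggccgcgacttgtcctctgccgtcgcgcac
Of 39 promoters annotated for 32 of the 49 genes, 2 held CTTTGAT (5.13%), 4 held CTTTGTT (10.3%) and 2 held ATGCAAA (5.13%). Among all 32851 promoters of the same length the shares were 3.73%, 5.85% and 4.63%. The SOX type match of Wnt3 begins 19 bases downstream of the start and that of Dkk1 begins 98 bases upstream. Fzd7 and Tcf7l2 have the other 2 SOX type matches, and Wnt11 and Wnt5b the TCF/LEF type ones. The median GC content was 70.0% in the pathway promoters and 52.7% in all promoters. A match is a string of letters and not a shown binding site, and a window without one says nothing of a factor.

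A pair of enzymes sets the lipid of a Wnt protein, Porcn, which attaches it, and Notum, which removes it outside the cell. Both were lowest in state 3. Notum was at 18.8 in state 3, 46.1 in state 2, 200 in state 1 and 122 in the total population, with log2 ratios of -3.35 for state 3 over state 1 and -2.09 for state 2 over state 1. Its value in state 3 was also below that in state 2, with a summed posterior of 0.922 that missed the limit. Porcn was at 74.7 in state 3, 83.0 in state 2, 263 in state 1 and 189 in the total population, with log2 ratios of -1.80 for state 3 over state 1 and -1.65 for state 2 over state 1. Its level thus changed at the Nanog step, with a log2 ratio of -0.15, not called, for state 3 over state 2. Among ligand carriers outside the 49 genes, Wls, which carries Wnt proteins to the cell surface, moved the other way, at 649 in state 3, 203 in state 2, 93.5 in state 1 and 149 in the total population. Of the 7 secretion genes listed, 2 were called higher in state 3 than in state 1 (28.6%), Wls and Tmed2, and none lower. Among genes with a mean of at least 5, 19.6% were called higher and 15.8% lower in this comparison. Of all genes, 11.4% were called higher and 9.01% lower.

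Of the 10 Frizzled receptors, 7 were called higher in state 3 than in state 1 and 1 lower, 3 higher and 2 lower in state 3 than in state 2, and 6 higher and 1 lower in state 2 than in state 1. Their median log2 ratios were 1.14, 0.24 and 0.58 in the same order of comparisons. In all, 7 receptors were called at the Nanog step and 5 at the Sox2 step, and over all genes there were likewise more calls at the Nanog step, 3990 against 2552. Over the full range 70.0% of the receptors were called higher and 10.0% lower. Of genes with a mean of at least 5, 19.6% were called higher and 15.8% lower, and of all genes 11.4% and 9.01%. Fzd2, needed for palate closure in the mouse together with Fzd1, was at 936 in state 3, 497 in state 2, 180.0 in state 1 and 287 in the total population, and was called at both steps, at 0.96 for state 3 against state 2. Fzd1 was at 84.0 in state 3, 43.3 in state 2, 15.8 in state 1 and 22.6 in the total population and was called for state 3 against state 1, with a log2 ratio of 2.34. Fzd6, a planar polarity receptor of hair and inner ear, was at 376 in state 3, 253 in state 2, 149 in state 1 and 169 in the total population. It rose at both steps, by 0.57 on the log2 scale for state 3 over state 2 and 0.77 for state 2 over state 1.

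Fzd4, the receptor for Norrin in retinal vessels, and Fzd8 rose at the Nanog step and had no call at the Sox2 step. Fzd4 was at 110 in state 3, 95.8 in state 2, 41.0 in state 1 and 57.3 in the total population, and the authors' posteriors placed it in the patterns with state 1 apart from the other states at 0.95 or more. Fzd8 was at 99.3 in state 3, 92.1 in state 2, 24.5 in state 1 and 40.4 in the total population, with a log2 ratio of 1.87 for state 2 over state 1 and 0.11, not called, for state 3 over state 2. Fzd10 did the reverse: it was at 500.0 in state 3, 226 in state 2, 258 in state 1 and 229 in the total population, and was called for state 3 against state 2, with a log2 ratio of 1.14. Its rise thus lay at the Sox2 step. Fzd3, a receptor of axon guidance, was at 886 in state 3, 730.1 in state 2, 552 in state 1 and 615 in the total population, a change of 0.68 on the log2 scale for state 3 over state 1. Fzd9 was at 67.9 in state 3, 58.8 in state 2, 49.95 in state 1 and 56.0 in the total population and had no call.

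Fzd5 and Fzd7, of which Fzd7 is linked to Wnt signalling in human ES cells, departed from the other receptors. Fzd5 was at 1354 in state 3, 2074 in state 2, 4753 in state 1 and 4065 in the total population, and fell at both steps, with log2 ratios of -0.61 for state 3 over state 2 and -1.20 for state 2 over state 1. Fzd7 was at 3191 in state 3, 4360 in state 2, 3379 in state 1 and 3547 in the total population. It peaked in state 2, with log2 ratios of -0.45 for state 3 over state 2 and 0.37 for state 2 over state 1, both called. Fzd7 and Sfrp1 were the 2 pathway genes called in opposite directions at the 2 steps, while 6 genes were called in the same direction at both. Of the co-receptors, Lrp5 was at 1637 in state 3, 1431 in state 2, 953 in state 1 and 1035 in the total population, and was placed in the patterns with state 1 apart. Lrp6 was at 2339.9 in state 3, 2208 in state 2, 2234 in state 1 and 2205 in the total population, with no call in any comparison.

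**Figure D3:**
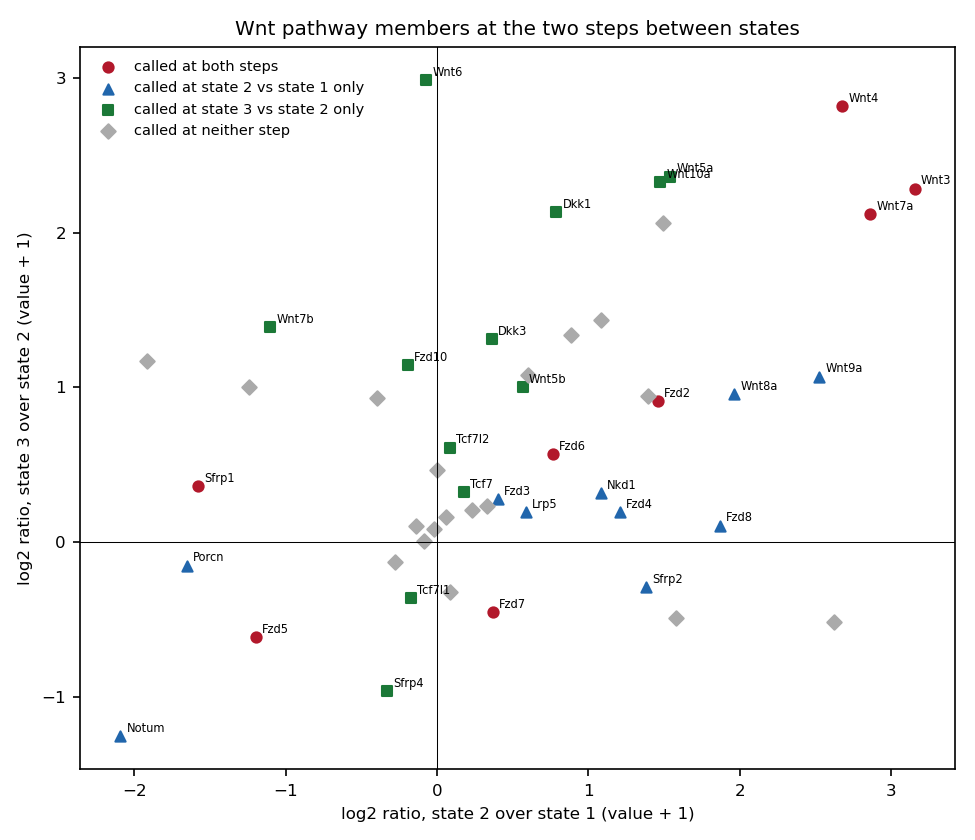
Log2 ratio (value + 1) of state 3 over state 2 (vertical axis) against that of state 2 over state 1 (horizontal axis) for each of the 49 pathway genes, with symbols for the step or steps at which the gene was called. Wnt3, Wnt4 and Wnt7a stand at the upper right, Fzd5 and Notum at the lower left, Sfrp1 at the upper left and Fzd7 at the lower right. The axes share the state 2 value, so the plot is a description and not a correlation.

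The secreted inhibitors divided. In state 3 against state 1, 3 of 8 were called higher (Dkk1, Dkk3 and Sfrp2) and 3 lower (Notum, Sfrp1 and Sfrp4), 37.5% each way. Of genes with a mean of at least 5, 19.6% were called higher and 15.8% lower, and of all genes 11.4% and 9.01%. Dkk1, which blocks Lrp5 and Lrp6 and is needed for head formation, was at 18.7 in state 3, 3.49 in state 2, 1.60 in state 1 and 2.74 in the total population. Its log2 ratio was 2.92 for state 3 over state 1 and 2.13 for state 3 over state 2, on about 5.0 estimated reads in state 1. Dkk3, a divergent family member, was at 81.4 in state 3, 32.2 in state 2, 24.8 in state 1 and 22.1 in the total population. Both Dickkopf genes were thus called at the Sox2 step and not at the Nanog step, and Dkk2, at 3.68 in state 3, 0.85 in state 2, 0 in state 1 and 0.34 in the total population, had no call.

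The Sfrp proteins bind Wnt proteins outside the cell, and each Sfrp gene had a pattern of its own. Sfrp1 was at 1021 in state 3, 793 in state 2, 2370.0 in state 1 and 1896 in the total population. It fell at the Nanog step, with a log2 ratio of -1.58, and rose at the Sox2 step by 0.36. Sfrp2 was at 207 in state 3, 254 in state 2, 96.8 in state 1 and 137 in the total population, with log2 ratios of 1.09 for state 3 over state 1 and 1.38 for state 2 over state 1, so that it ran opposite to Sfrp1 at the Nanog step. Sfrp4 was at 32.0 in state 3, 63.2 in state 2, 79.7 in state 1 and 67.6 in the total population, and fell at the Sox2 step, with a log2 ratio of -0.96. Sfrp5 was at 12.6 in state 3, 11.1 in state 2, 10.7 in state 1 and 9.17 in the total population and had no call.

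Among the 5 inhibitors of the receiving cell, Nkd1 alone was called (20.0%). Over the full range this share is near the 19.6% of genes with a mean of at least 5 called higher, with 11.4% over all genes. Nkd1, which binds Dishevelled, was at 43.2 in state 3, 34.5 in state 2, 15.8 in state 1 and 25.8 in the total population, with log2 ratios of 1.40 for state 3 over state 1 and 1.08 for state 2 over state 1. Both of its calls are lost with state 1 and the total population exchanged in the pattern order. Axin2, the feedback inhibitor widely read as a target of beta-catenin signalling, was at 159 in state 3, 83.2 in state 2, 110 in state 1 and 118 in the total population. It had no call, with a summed posterior of 0.591 at the Sox2 step and 0.58 over the full range. Znrf3 and Rnf43 remove Frizzled receptors from the cell surface. Znrf3 was at 487 in state 3, 610.1 in state 2, 576 in state 1 and 567 in the total population, and its lower value in state 3 reached 0.873 against each of the other states. Rnf43 was at 31.04 in state 3, 26.2 in state 2, 20.7 in state 1 and 20.8 in the total population, and Axin1 at 1191 in state 3, 1105 in state 2, 1215 in state 1 and 1214 in the total population, both with no call.

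Of the 4 nuclear effectors, 2 were called higher and 1 lower at the Sox2 step, and none was called at the Nanog step. Over all genes 5.41% were called higher and 3.19% lower at the Sox2 step, and 7.11% and 6.33% at the Nanog step. For genes with a mean of at least 5 the shares were 9.38% and 5.63% at the Sox2 step and 12.5% and 11.1% at the Nanog step. With 4 genes, the lack of a call at the Nanog step cannot be told from these shares. Tcf7, a Tcf factor that mostly activates with beta-catenin, was at 531 in state 3, 425 in state 2, 375 in state 1 and 382 in the total population, and Tcf7l2 at 864 in state 3, 565 in state 2, 533 in state 1 and 526 in the total population. The repressor Tcf7l1 was at 961 in state 3, 1235 in state 2, 1395 in state 1 and 1272 in the total population. The log2 ratios of state 3 over state 2 were 0.32 for Tcf7, 0.61 for Tcf7l2 and -0.36 for Tcf7l1. Tcf7l2 was the single pathway gene placed in the patterns with state 3 apart. Ctnnb1 was at 9729 in state 3, 9678 in state 2, 10269 in state 1 and 10016 in the total population, and the patterns with the 3 states equal held at least 0.95 of its posterior. RNA level says nothing of the stability of the beta-catenin protein.

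**Figure D4:**
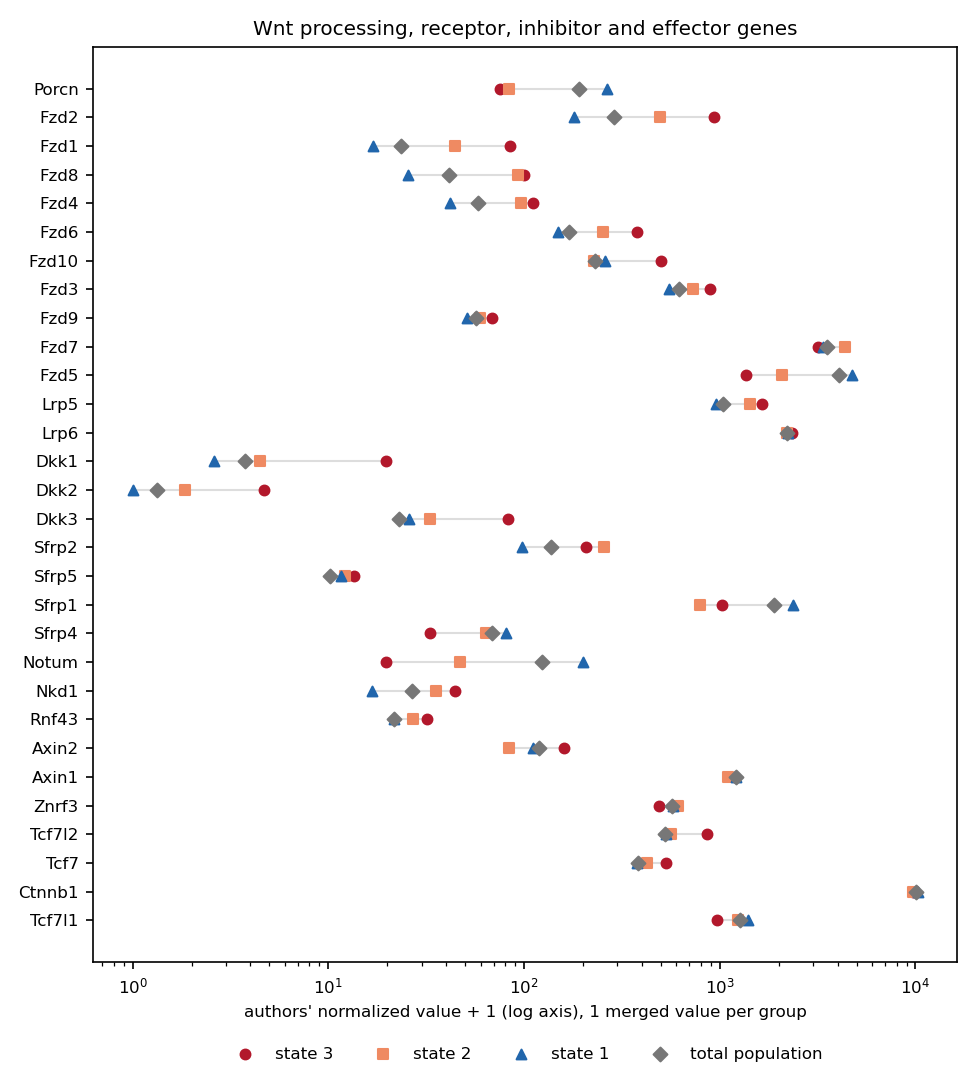
The authors' merged value + 1 (log axis) of the pathway genes other than ligands in state 3 (red circles), state 2 (orange squares), state 1 (blue triangles) and the total population (gray diamonds), grouped from top to bottom as ligand processing, receptors, co-receptors, secreted inhibitors, inhibitors of the receiving cell and nuclear effectors. Fzd5, Notum, Porcn and Sfrp1 have state 1 at the right, and Ctnnb1, Lrp6 and Axin1 have the 4 points nearly on top of each other.

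State 2 lay between the other states for most of the 30 genes called in state 3 against state 1. The median gene had covered 0.577 of its log2 distance from state 1 by state 2, beside 0.603 over all 6070 genes called in this comparison, which is close to it. The share was 0.946 for Fzd8 and 0.916 for Porcn, against 0.123 for Tcf7l2 and 0.216 for Dkk3. It was below 0 for Fzd10 and Wnt6 and above 1 for Sfrp1 and Sfrp2, whose state 2 values lay outside the range of the other states. The total population lay inside the range of the 3 states for 41 of the 49 genes, below it for 6 and above it for 2.

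Other genes of the pathway were read from lists by role. Of 16 known targets of the pathway outside the 49 genes, 10 were called higher (62.5%) and none lower in state 3 than in state 1. Their median log2 ratio was 1.86. Of all genes, 11.4% were called higher and 9.01% lower, and of genes with a mean of at least 5, 19.6% and 15.8%. Targets that belong to the 49 genes are not in this list. Axin2, widely read as such a target, had no call in any comparison, so the count does not cover every target. The homeobox gene Cdx2 was at 400.1 in state 3, 26.0 in state 2, 4.18 in state 1 and 32.0 in the total population, and Cd44 and Sp8 had log2 ratios of state 3 over state 1 of 5.54 and 4.15. The targets Myc, Ccnd1, Ephb2, Ephb3 and Mixl1 had no call in any comparison. Cdx1 was called lower at the Nanog step and higher at the Sox2 step, at 62.1 in state 3, 30.3 in state 2, 95.9 in state 1 and 70.0 in the total population. Over the full range its log2 ratio was -0.62, with a summed posterior of 0.926 that missed the limit. Several of these genes also mark other cell types, among them Cdx2 (trophectoderm) and T (primitive streak). Of 5 naive pluripotency genes that Tcf7l1 is known to repress in mouse ES cells, all 5 were lower in state 3 than in state 2 and in state 2 than in state 1, and 1 of them, Nanog, was used for the sort. Esrrb was at 602 in state 3, 1945 in state 2, 9206 in state 1 and 6799 in the total population.

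Lef1, a partner of beta-catenin, was at 384 in state 3, 375 in state 2, 33.6 in state 1 and 140.4 in the total population, with log2 ratios of 3.44 for state 2 over state 1 and 0.04, not called, for state 3 over state 2. Lef1 therefore changed at the Nanog step. The 4 nuclear effectors above had no call there, but they are too few to be set apart from the background. Among all 15 nuclear cofactors, 4 were higher (26.7%) and 3 lower (20.0%) in state 3 than in state 1. Bcl9l was up by 1.65 and Aes, a corepressor, was at -1.97. The cofactor shares are near the 19.6% and 15.8% of genes with a mean of at least 5. Over all genes the shares were 11.4% and 9.01%. Of 14 further inhibitors, 5 were higher (35.7%) and none lower. Trabd2b, a protease that inactivates Wnt proteins, led them, at 53.9 in state 3, 23.7 in state 2, 1.94 in state 1 and 10.6 in the total population, followed by Nkd2 with a log2 ratio of 1.46.

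Of the 6 glypicans, cell-surface proteoglycans that bind Wnt proteins, 5 were higher in state 3 than in state 1 and none lower, led by Gpc6 with a log2 ratio of 2.50 and Gpc5 with 2.47. Of 15 genes of planar polarity and alternative receptors, 7 were higher and 2 lower, with Prickle1 at 489 in state 3, 209 in state 2, 54.3 in state 1 and 95.8 in the total population. R-spondins enhance Wnt signalling through Lgr receptors. Of 7 such genes 3 were higher and none lower, with Lgr4 at 1925 in state 3, 1506 in state 2, 1166 in state 1 and 1310.3 in the total population. The 16 genes of the destruction complex and Dishevelled had 4 higher and 3 lower and a median log2 ratio of 0.14. For the destruction complex and Dishevelled these are 25.0% and 18.8%, close to the 19.6% and 15.8% of genes with a mean of at least 5, which every gene of that list reached. Over all genes the shares were 11.4% and 9.01%.

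Markers of several cell types moved with the pathway genes. The 6 primitive endoderm markers summed to 85.7 in the total population, inside the range of the states given above, and 5 of the 6 were called higher in state 3 than in state 1. The sum of 5 trophectoderm markers was 815 in state 3, 157 in state 2, 51.4 in state 1 and 128 in the total population, with 4 of 5 called higher and the defining marker Elf5 at 0.36 in state 3, 0 in state 2 and 0.64 in state 1. For 6 fibroblast markers the sum was 1137 in state 3, 194 in state 2, 97.8 in state 1 and 212 in the total population, with 3 of 6 called higher. Col1a1 alone held 827 of the state 3 sum, Dcn was at 0 in state 1 and Lum at 0 in state 2. All 3 sums were highest in state 3 and lowest in state 1. The 5 primitive streak markers summed to 204 in state 3, 69.2 in state 2, 62.0 in state 1 and 62.6 in the total population, with 2 of 5 called higher. The 4 neuroectoderm markers summed to 6064 in state 3, 2224 in state 2, 846 in state 1 and 1429 in the total population, with 2 of 4 called higher. Nes alone held 5446 of the state 3 sum. Sox1 was called lower at the Nanog step and higher at the Sox2 step. Pax6 was at 55.6 in state 3 and 103 in state 1, not called. The 5 markers of formative and primed pluripotency summed to 9943 in state 3, 11200 in state 2, 3635 in state 1 and 5192 in the total population, with 4 of 5 called higher and 1 lower in state 3 than in state 1. The 7 naive markers, which define ES cells of this kind, summed to 3718 in state 3, 8904 in state 2, 39260 in state 1 and 28960 in the total population, with 7 of 7 called lower. Nanog is among these 7 and was used for the sort, so its part in this fall was set by the gates. Of all genes, 11.4% were called higher and 9.01% lower in state 3 than in state 1. The part of these cell types in the Wnt ligand and receptor values was not tested.

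The small RNA table, from separate libraries of the same 4 groups, lists 46 of the 49 genes, 11 of them with a mean of at least 5. Lrp5 was the 1 pathway gene called there, at 16.1 in state 3, 16.3 in state 2, 5.58 in state 1 and 6.53 in the total population, with log2 ratios of 1.38 for state 3 over state 1 and 1.39 for state 2 over state 1. The direction is the one seen for Lrp5 in the RNA-seq table. Of all 26278 features, in either direction, 1.63% were called over the full range, 0.97% at the Sox2 step and 0.696% at the Nanog step, so a single call of 46 is near the background. The sign of the state 3 over state 1 ratio matched between the tables for 5 of the 11 genes. Which fragments of these messages entered the small RNA libraries cannot be read from the table.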

How the data were processed

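Cells were sorted by flow cytometry and total RNA was taken with Trizol, per the labels' protocols, and 12 RNA-seq libraries (depleted of rRNA, strand marked by dUTP) and 8 small RNA libraries were made. STAR 2.4.1d, RSEM 1.2.30, mm10 and GRCm38 are listed in the submitters' processing notes without a role. The sources used here do not say how the authors scaled libraries or merged them into 1 value per group.

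The values the authors deposited in both tables are a normalized signal for each feature and group, per the file headers. They are neither counts nor scaled to a fixed sum. The authors also deposited a score for every one of 15 patterns of equal or unequal groups (an EBSeq posterior probability), per the file headers, without spelling the patterns out. EBSeq's own order was assumed, with groups as the columns run. Under it, groups that the leading pattern joins were the closer ones in 94.4% of the 1453 genes examined in the RNA-seq table and 93.8% of 161 entries among small RNAs. Exchanging state 1 with the total population, the next best order, gave 90.8% and 78.3%.

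For each pair of groups the scores of all patterns that separate them were added up over all 29692 genes. A sum of 0.95 made a call, and the values gave its direction. The addition alone was checked, on simulated tables built with the assumed order and a clear leading pattern. That check cannot say whether the assumed order is the authors' or how sure the calls are. No test over libraries could be run on merged values, so there is no p-value. Libraries are not labelled as separate cultures, and the spread behind the posteriors may be technical. The 49 genes, the lists and the comparisons were chosen with earlier results of these data known. The rule for naming took pathway genes called in any comparison, the most abundant uncalled one of each family, those nearest the limit, and up to 4 called genes per other list by size of change. Other pathway genes, markers and uncalled targets are named to account for every gene and were chosen after their values were seen. One gene that this rule names is not reported here.

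Depth was estimated from the commonest low value in each column, taken as the worth of a single read. A value of 0 allows up to 3 reads per group, worth 0.84 to 1.08 in the RNA-seq table or 0.93 to 2.22 among small RNAs, counting error only. Coordinates and promoters come from RefSeq, GRCm38.p6, where all 49 symbols matched and 32 genes had a promoter. Alternatives were limits of 0.99 and 0.80, the exchanged order, a minimum mean, a minimum fold, other pseudocounts and other scalings. Python 3.11.15, pandas 2.3.3, numpy 2.4.6 and matplotlib 3.10.9 were used.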

Additional observations from a re-analysis of the deposited data

How the results depend on the processing

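No paired analysis was possible because the tables hold 1 merged value per group, and for the same reason no library could be left out. The number of pathway genes called was 18 at the Nanog step (state 2 against state 1), 20 at the Sox2 step (state 3 against state 2) and 30 over the full range (state 3 against state 1). At a limit of 0.99 these counts were 17, 15 and 29, and at 0.80 they were 22, 24 and 32. With state 1 and the total population exchanged in the pattern order they were 13, 20 and 29: Wnt3, Wnt4, Wnt7a, Wnt8a and Nkd1 lost their call at the Nanog step and Nkd1 over the full range. A minimum fold of 1.5 left 16, 15 and 28, and a minimum mean of 5 left 18, 20 and 30. The 3 rescalings of the values turned none of the 78 directions examined. These are the 68 calls at 0.95 and 10 more that are called only at the limit of 0.80. The posteriors were not recomputed, so a rescaling could turn a direction but could not add or remove a call. How the calls themselves depend on scaling was not tested. The limit of 0.99 removed Fzd3 at the Nanog step, Fzd2, Fzd6, Tcf7l1, Wnt5b and Wnt7b at the Sox2 step, and Wnt2b over the full range. The median log2 ratio of the pathway genes moved with the weight of low values. At the Sox2 step it was 0.46 as reported, 0.36 with a pseudocount of 5 and 0.57 with 0.1. Over the full range it was 0.95 as reported, 0.73 with a pseudocount of 5, 1.10 with 0.1 and 0.74 over genes with a mean of at least 5. Depth limits the ligands most, since 9 of 19 had at most 10 estimated reads in state 1.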
